A study of Mus musculus with 43 samples.

Results

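The 9 genes described here encode enzymes that face the outside of the cell and consume extracellular NAD, ATP, ADP or AMP: *Cd38*, *Bst1*, *Nt5e*, *Entpd1*, *Entpd2*, *Entpd3*, *Entpd8*, *Enpp1* and *Enpp3*. They were taken by name from a CRISPR knockout screen of 2078 metabolic genes, and each was targeted by 5 single guide RNAs (sgRNAs), 45 in all. CD90.1+ OT-I T cells, CD8+ cells whose receptor recognises ovalbumin, carried a Cas9 knock-in and the lentiviral sgRNA library, and CD90.1 marks the vector. The cells came from OT-I:Rosa26-Cas9 mice, bred from Rag2/OT-I animals, and were given to Rosa26-Cas9 mice of 6 to 12 weeks of age that had carried orthotopic KPC_OVA tumours, a pancreatic cancer line expressing ovalbumin, for 5 days. T0 is the transduced cell population of the day of transfer, cultured and never injected (3 libraries). On day 7 the CD90.1+ cells were sorted from primary tumour, lung, liver, peritoneal metastases, spleen, draining lymph nodes and nondraining lymph nodes of mice under anti-PD-1 or a control IgG antibody, given from the day of transfer on. All groups shared the Cas9 allele, the library and, apart from T0, the tumour.

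Most groups had 3 libraries, whereas liver IgG and peritoneal metastases IgG had 2 and liver anti-PD-1 had 1. Of the 43 samples, 2 had no values (replicate 2 of liver under anti-PD-1 and replicate 1 of peritoneal metastases under IgG), and the methods state that 2 samples were excluded at quality control. Liver samples were numbered 2 and 3 in both treatments, so both liver IgG samples had values. The labels number replicates within each organ and treatment, and the study counts more mice than libraries, but how many animals gave cells to a library is not stated in the sources used here. The p-values therefore measure the spread between libraries. The title of replicate 2 of peritoneal metastases under anti-PD-1 names metastases, while its tissue entry reads spleen. It was kept with its title, and the changes, treatment differences, organ means, sgRNA changes and correlations that it enters are also given without it. The sequenced molecule was genomic DNA, so the data hold no expression markers with which the sorted cell type could be checked.

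The NAD glycohydrolases CD38 and BST1 (CD157) cleave extracellular NAD and can form cyclic ADP-ribose. ENTPD1 (CD39) and its relatives ENTPD2, ENTPD3 and ENTPD8 remove terminal phosphates from extracellular ATP and ADP, ENPP1 and ENPP3 cut ATP directly to AMP and pyrophosphate, and NT5E (CD73) turns AMP into adenosine. Extracellular ATP acts as a danger signal through purinergic receptors, and adenosine restrains activated T cells through adenosine receptors. CD38 and CD39 are both used as surface markers of exhausted CD8+ T cells in tumours. In a pooled screen each knockout T cell shares its surroundings with cells that keep the enzyme.

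The deposited value per sgRNA and library was a signal, that is, a read count which the authors normalised to nontargeting sgRNAs and corrected for batch, with unknown depth. A gene's level was the mean over its 5 sgRNAs of log2(signal + 1), minus the mean of the 250 nontargeting sgRNAs of the same library, so that 0 is the average of cells without a targeted gene. A difference of such levels from T0 is called a change below. A lower level can mean that fewer knockout cells reached the organ, divided or survived there. It can also mean that sgRNAs were missed in a library whatever their target, and these cannot be told apart. An sgRNA at 0, or at a lowest value that libraries of the same replicate number share, was read as not seen in that library. Nontargeting sgRNAs were also not seen in part, for example 38.4% of them in lung IgG replicate 1. Equal values above 0 occurred in 134 of 244 pairs of libraries from different organs with the same replicate number, and in 0 of 73 pairs from the same organ with different numbers. The methods name differences between organs as what was corrected, so which libraries formed a batch is not settled, and its part in the comparisons between organs and with T0 was not tested. In the 26 sorted libraries of tumour, lung, liver, peritoneal metastases and spleen (the 5 organs), 2.78 to 42.6% of all sgRNAs were at such a value, against 48.6 to 91.6% in the 12 lymph node libraries and 0 to 0.0188% at T0. The lymph nodes were therefore fitted apart from the 5 organs, each with T0, and changes were tested with limma on all 2078 genes with a threshold of 0.05 on p-values adjusted by Benjamini and Hochberg's method.

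None of the 9 ectoenzyme genes left T0 past the threshold when the 10 groups of the 5 organs were averaged, a comparison in which 16.3% of all genes were called (4 higher and 334 lower). None of the 9 reached an unadjusted p under 0.05 by limma either, against 391 of all 2078 genes. Their mean changes ran from a decrease in *Entpd8*, at -0.60, to an increase in *Cd38*, at 0.45, and the median of the 9 was -0.15 beside -0.14 over all genes. The plot of mean changes with their intervals sets them beside *Nadk*, *Nampt* and *Ak6*, intracellular genes of NAD and adenine nucleotide metabolism that fell past the threshold.

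**Figure D1:**
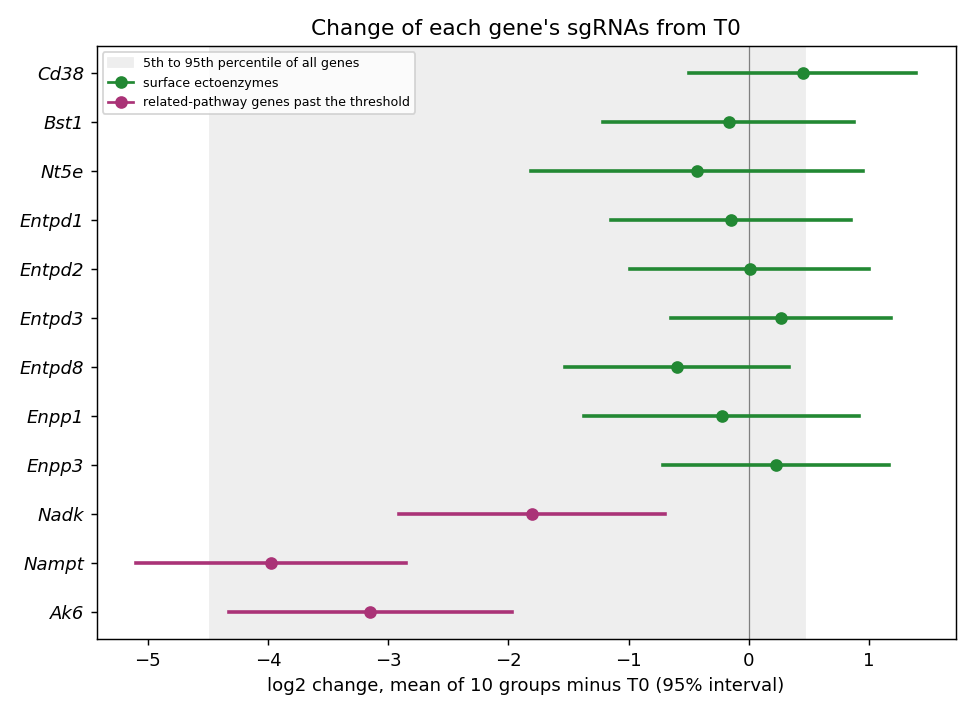
Log2 change of the mean of the 10 tumour, lung, liver, peritoneal metastases and spleen groups from T0 (x axis) for each gene (y axis), with points for the limma estimate, lines for its 95% interval and grey for the 5th to 95th percentile of all 2078 genes. All 9 ectoenzyme intervals (green) include 0, with estimates from -0.60 for *Entpd8* to 0.45 for *Cd38*. *Nadk*, *Nampt* and *Ak6* (purple), shown because they passed the threshold here, lie between -3.98 and -1.81.

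Among the NAD-consuming pair, *Cd38* had a level of -0.15, -0.05 and -0.30 in the 3 T0 libraries and between -1.59 and 1.82 in the 26 sorted libraries, with a median of 0.03. Of these, 15 were above and 5 below every T0 library, so sorted libraries lay on both sides of T0. The mean change was 0.45 (SE 0.464, 95% interval -0.49 to 1.40, adjusted p = 0.969 by limma), which placed *Cd38* 112th from the top of 2078 genes. *Bst1*, which sits beside *Cd38* in the genome and makes the same products, had T0 levels of 0.51, 0.39 and 0.44 and sorted levels of -1.80 to 1.76 with a median of 0.24. Its mean change was -0.17 (95% interval -1.21 to 0.88), with 11 sorted libraries above and 14 below T0.

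The largest value of any of the 9 genes against T0 was that of *Cd38* in liver anti-PD-1. The only library of that group had a *Cd38* level of 1.82, whereas liver IgG replicates 2 and 3 had -1.59 and 1.29. The 2 IgG libraries thus bracketed all 3 T0 libraries, and the anti-PD-1 library was above them. All 5 *Cd38* sgRNAs were above T0 in the anti-PD-1 library, by 0.94 to 3.55. Against T0 the change was 1.99 (95% interval 0.21 to 3.77, unadjusted p = 0.0294, adjusted p = 0.218 by limma), with the spread of this single library assumed to be that of the other groups, and 9.87% of all genes were called there. In lung IgG, *Cd38* levels were -0.37, 1.57 and 1.66, and in lung anti-PD-1 they were 0.07, -0.18 and -0.85. The lung IgG change from T0 was 1.12 (adjusted p = 0.266 by limma, 17.9% of all genes called), and it was 1.78 (adjusted p = 0.0482) without lung IgG replicate 1, the library in which 40.0% of the 45 sgRNAs were at their lowest value. That library had the lowest *Cd38* level of the group, so leaving it out raises the change. The values without lung IgG replicate 2 or 3 are not given here.

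*Nt5e*, the AMP-hydrolysing step that yields adenosine, lay below T0 on average in all 10 groups, by 0.04 to 1.35, yet no group passed the threshold, and without peritoneal metastases anti-PD-1 replicate 2 that group lay above T0, by 0.21. Its T0 levels were tight, at -0.37, -0.33 and -0.39, and ranked 2001st of 2078 genes in the starting population. Sorted levels ran from -4.56 to 0.87 with a median of -0.54, of which 11 were above and 15 below T0. The mean change was -0.43 (95% interval -1.81 to 0.95, adjusted p = 1.0 by limma). The lowest library was lung anti-PD-1 replicate 2, in which 4 of the 5 *Nt5e* sgRNAs were at their lowest value, with signals of 0.315, 0.766, 0.803 and 0.661, while s_03772 had a signal of 191.8. Lung anti-PD-1 replicates 1 and 3 had levels of 0.87 and -1.44, so the group reached to both sides of T0. Without replicate 1 of that group, in which 18.1% of all genes were called, the lung anti-PD-1 change moved from -1.35 (adjusted p = 0.390) to -2.64 (adjusted p = 0.0303 by limma). Replicate 1 was the library of the group above T0, so leaving it out lowers the mean. The lung anti-PD-1 mean leaned on replicate 2, and the value without replicate 2 is not given here.

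*Entpd1*, which encodes the CD39 ATP and ADP hydrolase upstream of CD73, had levels below the nontargeting mean from the start. They were -0.24, -0.10 and -0.21 at T0 and -2.04 to 1.67 in the sorted libraries, with a median of -0.38. The mean change was -0.15 (95% interval -1.14 to 0.85, adjusted p = 1.0 by limma), and 8 sorted libraries were above and 16 below T0. In the primary tumour 5 of 6 *Entpd1* libraries were below T0, although only slightly, with levels of -0.26, -0.63 and -0.29 under IgG and -0.68, -0.04 and -0.69 under anti-PD-1. The tumour changes were -0.21 and -0.29, well inside intervals that reach from -1.62 to 1.12.

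**Figure D2:**
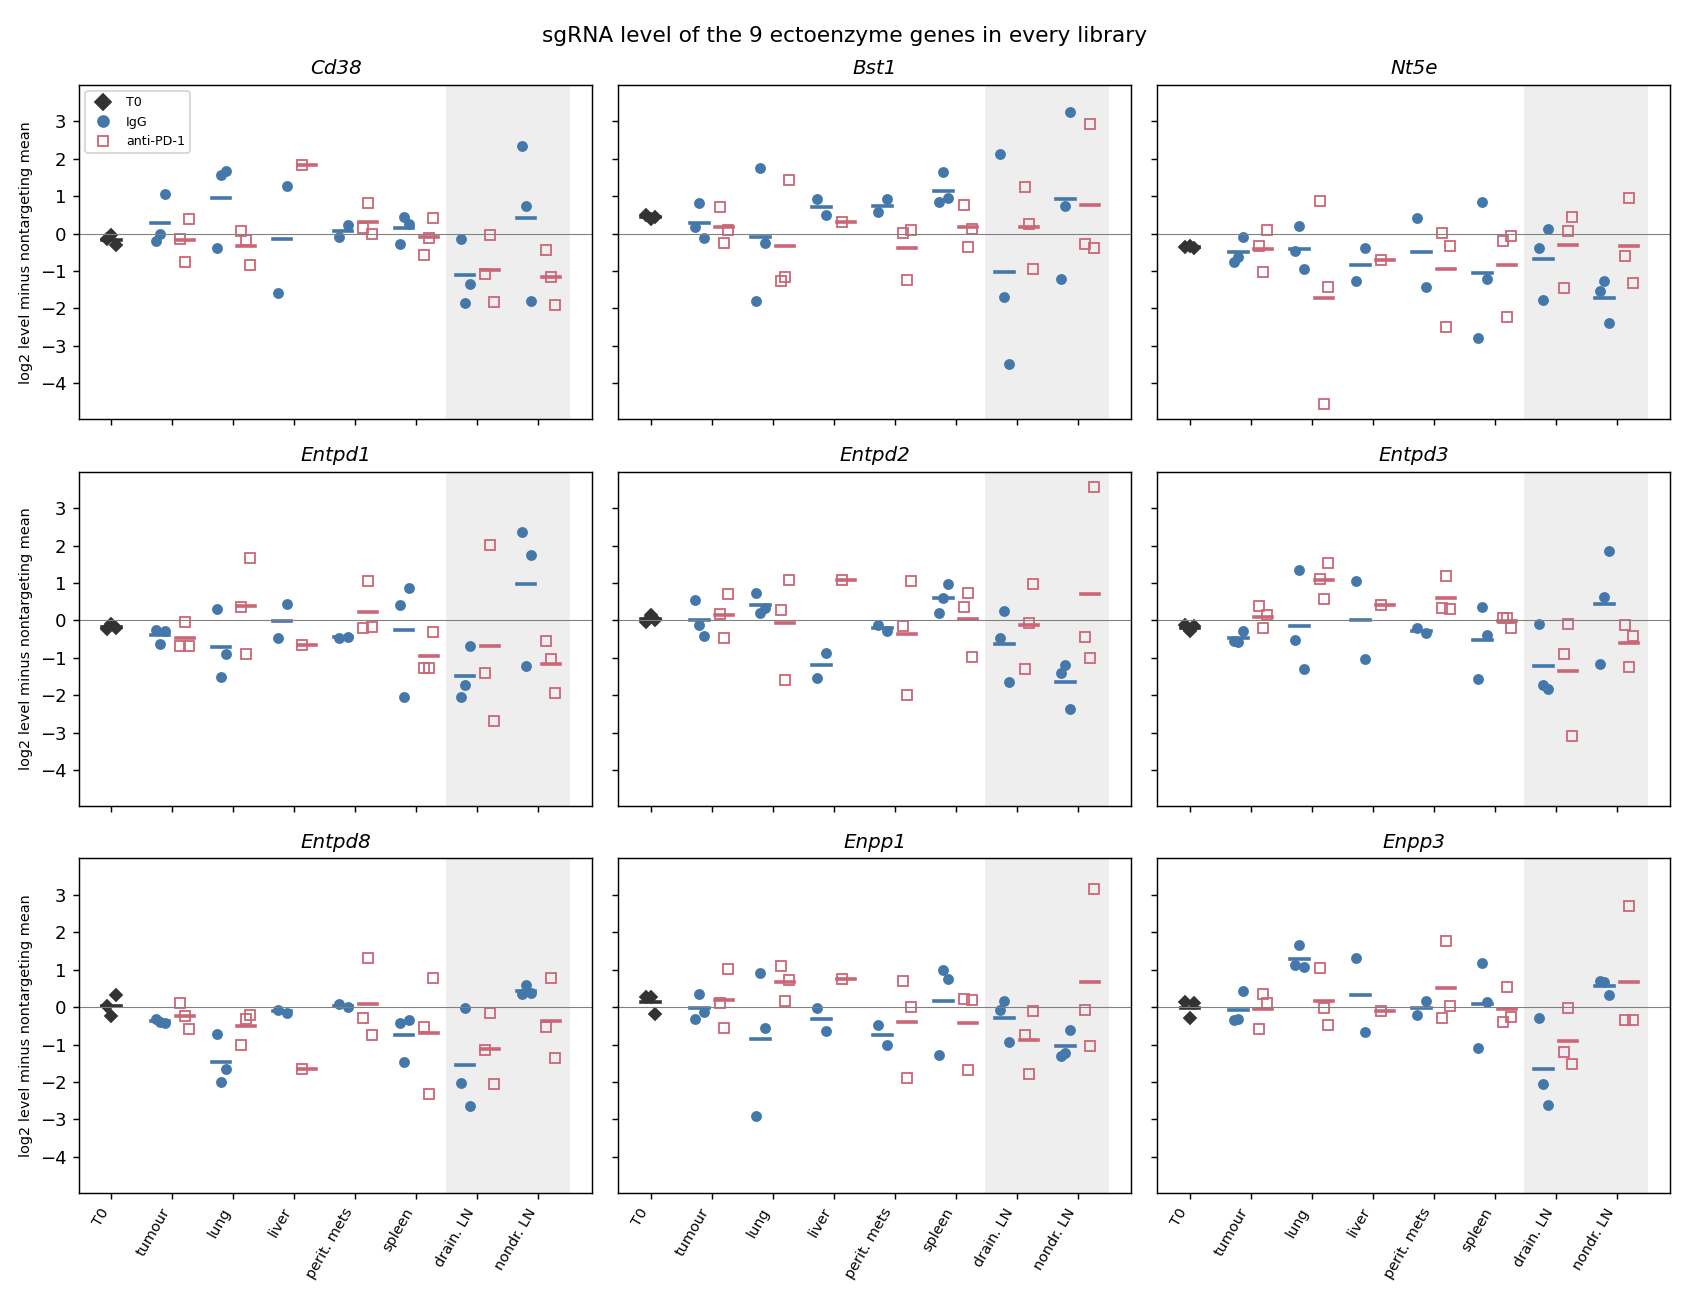
Level of each gene (mean log2 of 5 sgRNAs minus the nontargeting mean, y axis) in every library by organ (x axis), with diamonds for T0, filled circles for IgG, open squares for anti-PD-1, short lines for group means and grey for the lymph nodes. T0 libraries lie close together for every gene, sorted libraries of the same group are spread up to several log2 units, and *Nt5e* in lung anti-PD-1 replicate 2 is the lowest point at -4.56.

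The relatives of *Entpd1* differed in sign but not past the threshold. *Entpd8* had the lowest mean change of the 9 genes, at -0.60 (95% interval -1.53 to 0.33, adjusted p = 0.802 by limma), with 17 of 26 sorted libraries below and 2 above T0. In lung IgG its levels were -0.73, -2.0 and -1.64, all below the T0 libraries at 0.03, -0.24 and 0.32. The lung IgG change was -1.49 (95% interval -2.73 to -0.25, unadjusted p = 0.0200, adjusted p = 0.0971 by limma), the smallest adjusted p of any ectoenzyme gene against T0, and it was -1.85 (adjusted p = 0.0496) without lung IgG replicate 1. Replicate 1 had the highest *Entpd8* level of the group, so leaving it out lowers the change. The values without lung IgG replicate 2 or 3 are not given here. *Entpd3* had a mean change of 0.27 (95% interval -0.65 to 1.19) and *Entpd2* of 0.0077 (-0.98 to 1.0).

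*Enpp1*, which also degrades cyclic GMP-AMP outside the cell, and *Enpp3*, a surface marker of basophils and mast cells, had mean changes of -0.23 (95% interval -1.37 to 0.92) and 0.23 (-0.72 to 1.17). *Enpp3* was above T0 in all 3 lung IgG libraries, at 1.13, 1.65 and 1.07 beside T0 levels of 0.14, -0.30 and 0.10. All 5 *Enpp3* sgRNAs were above T0 on average there, by 0.78 to 2.06, but the change of 1.30 (95% interval 0.05 to 2.55) had an adjusted p of 0.171 by limma. In lung anti-PD-1 *Enpp3* levels were 1.03, -0.03 and -0.48, around T0. *Enpp1* had its lowest level in lung IgG replicate 1, at -2.91, beside 0.92 and -0.55 in the other lung IgG libraries.

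Taken group by group, none of the 90 changes of the 9 genes in the 10 groups was called, and 4 had an unadjusted p under 0.05 by limma. These were *Cd38* in liver anti-PD-1, *Entpd3* in lung anti-PD-1, and *Entpd8* and *Enpp3* in lung IgG. Outside lung and liver anti-PD-1, already given, the share of all genes called was 14.3% in primary tumour IgG, 14.6% in primary tumour anti-PD-1, 13.3% in liver IgG, 13.7% in peritoneal metastases IgG, 15.4% in peritoneal metastases anti-PD-1, 13.9% in spleen IgG and 14.4% in spleen anti-PD-1. Nearly all of those calls were decreases. In lung IgG, lung anti-PD-1 and liver anti-PD-1, 546, 537 and 308 of all 2078 genes had an unadjusted p under 0.05 by limma. In the other groups this number ran from 342 in primary tumour IgG to 411 in spleen anti-PD-1. Without peritoneal metastases anti-PD-1 replicate 2, the change of that group moved from -0.58 to 0.21 for *Nt5e*, from -0.53 to 0.23 for *Enpp1*, from -0.40 to 0.41 for *Entpd2*, from 0.06 to -0.54 for *Entpd8* and from 0.52 to -0.11 for *Enpp3*. *Cd38* stayed positive (0.49 and 0.23), as did *Entpd3* (0.80 and 0.52), *Bst1* stayed negative (-0.82 and -0.39) and *Entpd1* went from 0.41 to -0.0040. No value of that group passed the threshold with or without the library.

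The mean change over the 10 groups without that library was 0.43 for *Cd38*, -0.12 for *Bst1*, -0.35 for *Nt5e*, -0.19 for *Entpd1*, 0.09 for *Entpd2*, 0.24 for *Entpd3*, -0.66 for *Entpd8*, -0.15 for *Enpp1* and 0.16 for *Enpp3*. Each gene kept its sign, and none of the 9 was called in any comparison without the library.

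Whether loss of an ectoenzyme mattered more in some organs than in others was asked with a moderated F-test across the 5 organs. None of the 9 genes was called, and 0.433% of all genes were. None of the 9 had an unadjusted p under 0.05 in this limma F-test, against 162 of all 2078 genes. The smallest p was that of *Entpd8* (unadjusted p = 0.173, adjusted p = 0.810 by limma). For *Cd38* the organ means ran from 0.02 in spleen, through 0.06 in primary tumour, 0.22 in peritoneal metastases and 0.32 in lung, to 0.51 in liver, with SDs of 0.41, 0.61, 0.36, 1.05 and 1.83 (n = 6, 6, 5, 6 and 3). For *Nt5e* they were -1.06 in lung, -0.94 in spleen, -0.79 in liver, -0.76 in peritoneal metastases and -0.46 in primary tumour, with SDs of 1.90, 1.39, 0.45, 1.19 and 0.43. For *Entpd1* they were -0.60 in spleen, -0.43 in primary tumour, -0.23 in liver, -0.16 in lung and -0.05 in peritoneal metastases, with SDs of 1.12, 0.27, 0.58, 1.16 and 0.63. In each of these orders, neighbours differed by less than their SDs. Without peritoneal metastases anti-PD-1 replicate 2, the means in peritoneal metastases were 0.07 for *Cd38*, -0.33 for *Nt5e* and -0.32 for *Entpd1*, with SDs of 0.14, 0.79 and 0.16 (n = 4). Peritoneal metastases then had the highest *Nt5e* mean of the 5 organs and no longer the highest *Entpd1* mean.

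Individual sgRNAs against the same ectoenzyme often lay on opposite sides of 0. Of the 45 sgRNAs, 20 had a mean change above 0, their median was -0.09, and 41 lay within the 5th to 95th percentile of the nontargeting sgRNAs (-1.29 to 1.0). For *Entpd3*, s_08348, s_08349 and s_08350 had mean changes of 0.67, 1.09 and 0.97 while s_08346 and s_08347 had -0.41 and -0.98. For *Cd38*, 4 of 5 sgRNAs were above 0, with s_00583 at 1.03 and s_00581 at 0.88. For *Nt5e* and *Entpd1*, 4 of 5 were below 0, down to -0.90 for s_03771 and -0.74 for s_00587. Without peritoneal metastases anti-PD-1 replicate 2, 20 of the 45 were again above 0, 2 changed sign, and the largest move was 0.23.

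The *Entpd8* mean leaned on s_06298, whose mean change of -2.08 was the lowest of the 45 sgRNAs. Its signal was 212.0, 196.1 and 182.7 at T0 and 0 to 203.6 in the sorted libraries, with a median of 44.0. The signal was below all T0 libraries in 25 of 26 sorted libraries and the level, centred on the nontargeting sgRNAs, in 20, and in 5 it was at its lowest value. The mean of the other 4 *Entpd8* sgRNAs was -0.23, with s_06296 at 0.57.

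**Figure D3:**
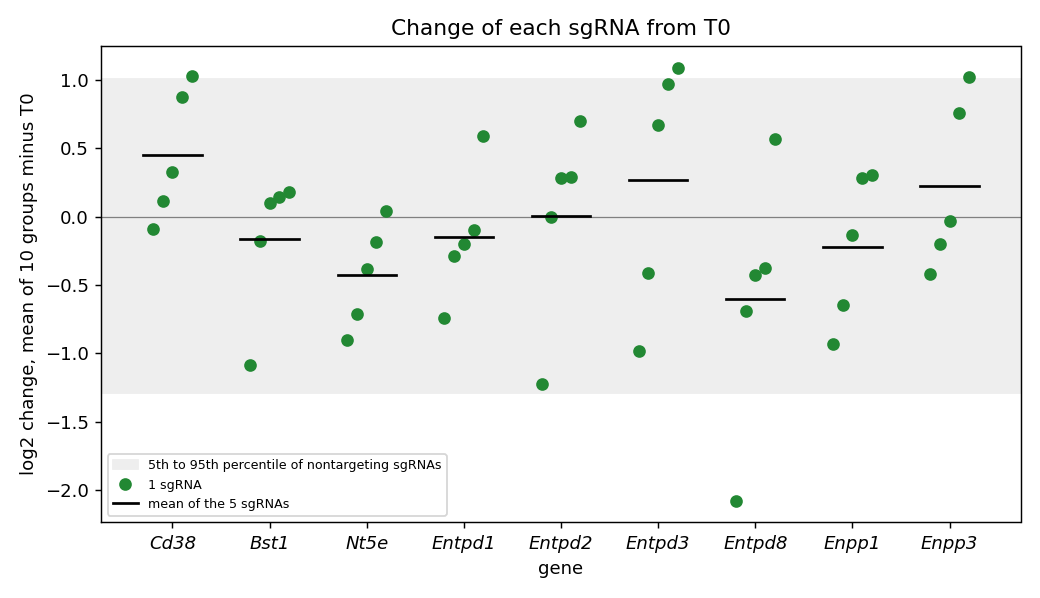
Log2 change of each sgRNA from T0, averaged over the 10 groups (y axis), by target gene (x axis), with dots for the 5 sgRNAs, a black line for their mean and grey for the 5th to 95th percentile of nontargeting sgRNAs (-1.29 to 1.0). The sgRNAs of every gene fall on both sides of 0, and s_06298 of *Entpd8* is alone below the grey band at -2.08.

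The question of the treatment arm was whether the antibody changed how these knockouts fared. Averaged over the 5 organs, none of the 9 genes was called between anti-PD-1 and IgG, in a comparison with 1.35% of all genes called. Of the 9, 1 (*Entpd3*) had an unadjusted p under 0.05 by limma, as did 329 of all 2078 genes. The share called was 3.56% in lung and 0% in primary tumour, liver, peritoneal metastases and spleen taken alone. In the same order, 437, 14, 93, 107 and 161 of all 2078 genes had an unadjusted p under 0.05 by limma. Across the 45 differences of the 9 genes in single organs, 4 had an unadjusted p under 0.05 and the smallest adjusted p was 0.228, for *Cd38* in lung. No gene of the whole library was called in the test of whether the treatment difference varied by organ (0% by limma, 103 genes at an unadjusted p under 0.05), and none of the 9 reached 0.05 unadjusted there. The smallest was that of *Cd38* (unadjusted p = 0.0814, adjusted p = 0.999 by limma).

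*Entpd3*, which encodes an ATP and ADP hydrolase best known from neurons and pancreatic beta cells, had a higher mean level under anti-PD-1 in each of the 5 organs. In primary tumour its levels were -0.55, -0.58 and -0.28 under IgG and 0.38, -0.22 and 0.14 under anti-PD-1, and in peritoneal metastases they were -0.22 and -0.33 under IgG and 0.34, 1.18 and 0.31 under anti-PD-1. In these organs the treatments, with 2 or 3 libraries each, did not overlap. The share of all genes without such overlap is not given here. The treatments overlapped in lung (-0.51, 1.34 and -1.29 against 1.12, 0.57 and 1.53), in spleen (-1.56, 0.35 and -0.39 against 0.06, 0.05 and -0.20) and in liver (1.05 and -1.03 against 0.42). The differences were 0.57 in primary tumour, 1.23 in lung, 0.41 in liver, 0.88 in peritoneal metastases (0.59 without anti-PD-1 replicate 2) and 0.51 in spleen.

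Over the 5 organs the *Entpd3* difference was 0.72 (SE 0.306, 95% interval 0.10 to 1.34, unadjusted p = 0.0247, adjusted p = 0.239 by limma), 146th from the top of 2078 genes, and thus not past the threshold. It was 0.66 (adjusted p = 0.295) without peritoneal metastases anti-PD-1 replicate 2. The lung difference had an adjusted p of 0.234, and it was 1.97 (adjusted p = 0.0493 by limma) without lung IgG replicate 2. Replicate 2 had the highest *Entpd3* level of the lung IgG libraries, so leaving it out raises the difference. The values without the other lung libraries are not given here. Of the 5 *Entpd3* sgRNAs, 4 were higher under anti-PD-1 averaged over the 5 organs, by 0.48 to 1.47, and s_08348 differed by -0.03. In the lymph nodes *Entpd3* differed the other way, by -0.60 over both sites (95% interval -2.04 to 0.84).

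The other genes had no common sign across organs except *Bst1*, which was lower under anti-PD-1 in all 5 organs, by 0.10 in primary tumour to 1.12 in peritoneal metastases, and by 0.57 on average (95% interval from -1.28 to 0.14, adjusted p = 0.441 by limma). Without peritoneal metastases anti-PD-1 replicate 2 the *Bst1* differences were -0.69 in peritoneal metastases and -0.48 over the 5 organs. In spleen *Bst1* levels were 0.86, 1.64 and 0.94 under IgG and 0.77, -0.36 and 0.12 under anti-PD-1. *Cd38* had opposite signs in liver and lung, at 1.97 (adjusted p = 0.976) and -1.27 (adjusted p = 0.228 by limma). *Nt5e* differed by -0.27 over the 5 organs (95% interval -1.20 to 0.67) and *Entpd1* by 0.07 (-0.60 to 0.75). Without the same library these were -0.11 for *Nt5e* and -0.01 for *Entpd1*, so the sign of the *Entpd1* value depended on it.

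*Entpd2*, an ecto-ATPase, differed most in liver, with levels of -1.53 and -0.86 under IgG and 1.07 in the anti-PD-1 library, a difference of 2.27 (95% interval 0.29 to 4.25, adjusted p = 0.976 by limma). *Enpp1* differed by 1.51 in lung (95% interval -0.0080 to 3.03, adjusted p = 0.239), where the IgG levels of -2.91, 0.92 and -0.55 overlapped the anti-PD-1 levels of 1.11, 0.17 and 0.71. *Entpd8* ranged from -1.55 in liver to 0.95 in lung, and *Enpp3* from -1.11 in lung to 0.52 in peritoneal metastases, where it was -0.11 without anti-PD-1 replicate 2. Over the 5 organs *Enpp1* differed by 0.52 (95% interval -0.26 to 1.30), *Entpd2* by 0.24 (-0.44 to 0.91), *Entpd8* by -0.07 (-0.70 to 0.56) and *Enpp3* by -0.22 (-0.86 to 0.42). Without peritoneal metastases anti-PD-1 replicate 2 they differed by 0.67, 0.40, -0.19 and -0.35, in the same order.

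**Figure D4:**
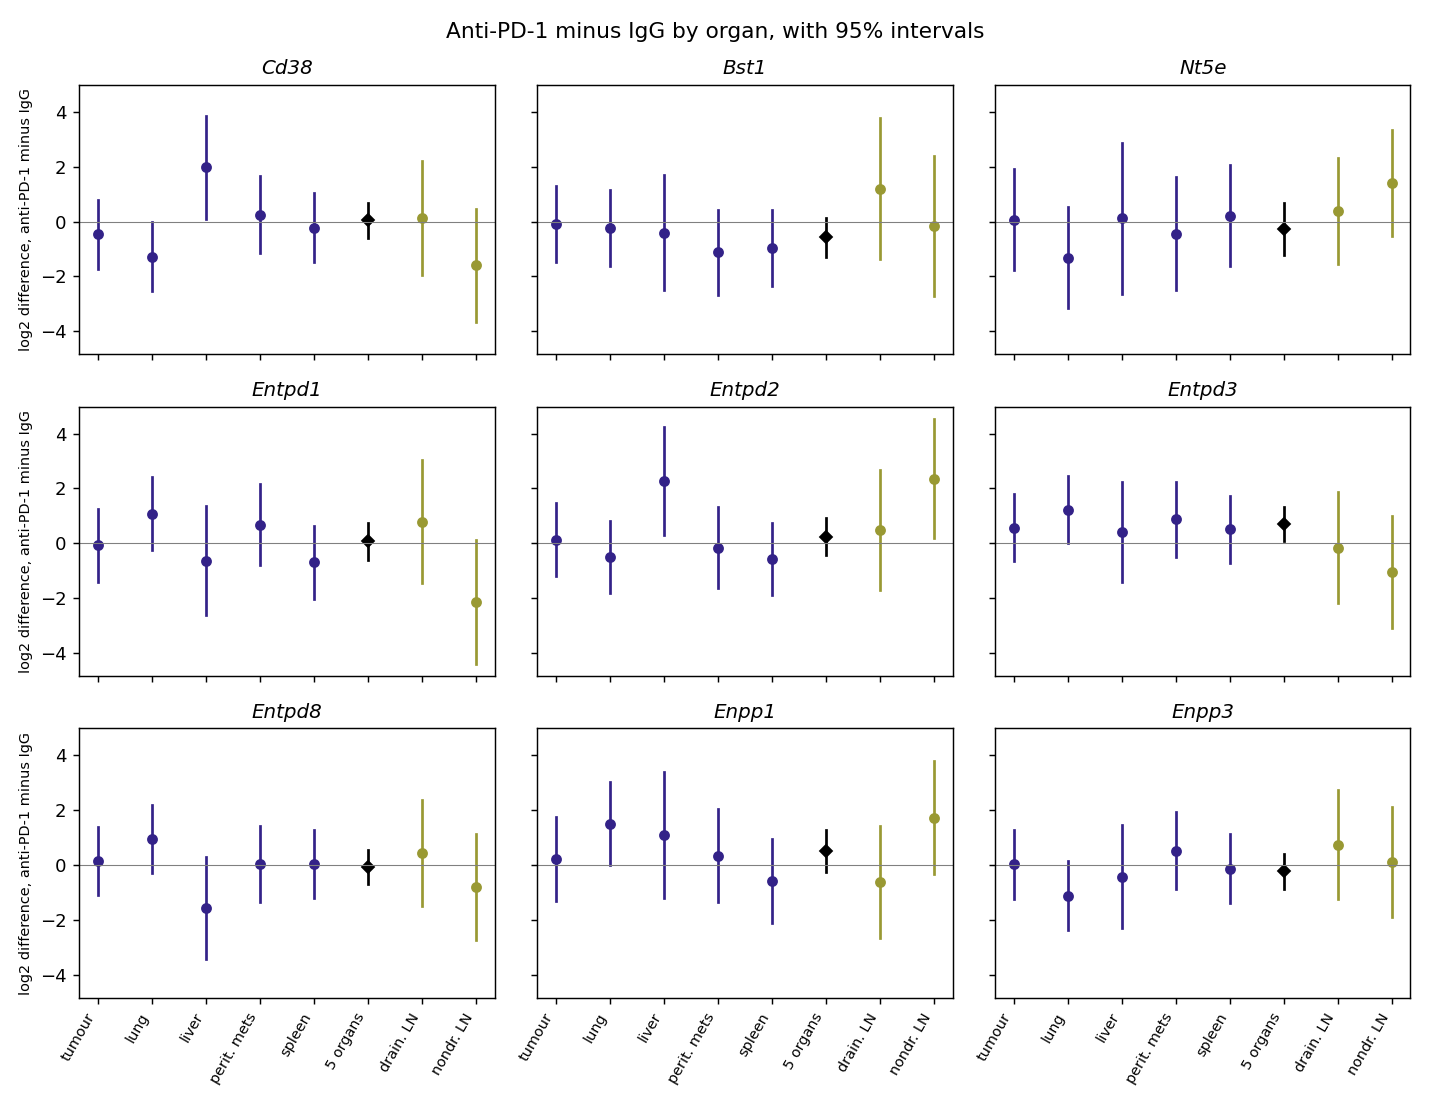
Difference in log2 level between anti-PD-1 and IgG (y axis) by organ, over the 5 organs together (diamonds) and in the lymph nodes (x axis), with points for the limma estimate and lines for its 95% interval. *Entpd3* is above 0 in all 5 organs, at 0.72 together, and *Bst1* is below 0 in all 5.

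In the lymph nodes most ectoenzyme sgRNAs were at their lowest value. At T0, 100% of the values of each gene were above the lowest value, in the primary tumour 100%, and in lung 76.7 to 93.3%. In draining lymph nodes this held for 16.7% (*Entpd8*, 5 of 30) to 30% (*Bst1*, 9 of 30) of a gene's sgRNA values, and in nondraining lymph nodes for 10% (*Nt5e*, 3 of 30) to 30% (*Enpp3*, 9 of 30). Over all targeting sgRNAs the shares were 31.2% and 21.9%. Gene levels there rest on the few sgRNAs that remained.

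None of the 36 changes of the 9 genes from T0 in the 4 lymph node groups had an unadjusted p under 0.05, and no gene of the library was called (0% in each group by limma, with 212, 234, 146 and 126 genes at an unadjusted p under 0.05). Between treatments 0% were called in draining and 0% in nondraining lymph nodes (249 and 243 genes at an unadjusted p under 0.05), and 0.0481% over both sites. In nondraining lymph nodes *Entpd2* had a difference of 2.36 (95% interval 0.19 to 4.53, unadjusted p = 0.0343, adjusted p = 0.389 by limma). Its levels were -1.41, -1.18 and -2.38 under IgG and -0.45, -1.01 and 3.57 under anti-PD-1. All 5 *Entpd2* sgRNAs were at their lowest value in each of the 3 IgG libraries and in anti-PD-1 replicates 1 and 2, so the contrast came down to anti-PD-1 replicate 3, in which 4 sgRNAs were present with signals of 2192, 164.4, 1386 and 276.4.

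**Figure D5:**
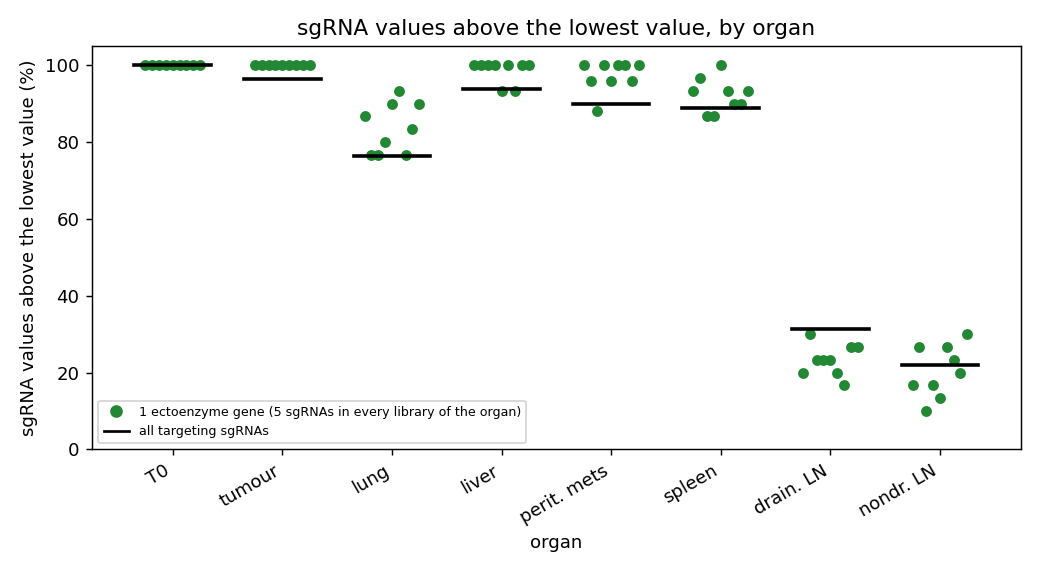
Share of sgRNA values above the lowest value in percent (y axis) by organ (x axis), with a dot for each of the 9 genes and a black line for all targeting sgRNAs. The 9 genes are at 100% at T0 and in primary tumour and at 10 to 30% in the lymph nodes.

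Of 44 listed genes of NAD supply and use inside and outside the cell, 27 were in the library, and 2 (7.41%) fell past the threshold in the mean of the 10 groups while none rose, beside 16.3% of all genes called (list median -0.21, all genes -0.14). They were *Nampt*, the rate-limiting enzyme of NAD salvage, which fell by 3.98 (SE 0.552, adjusted p = 3.56e-07 by limma), and *Nadk*, which makes NADP from NAD and fell by 1.81 (SE 0.544, adjusted p = 0.0143) and was below T0 in 25 of 26 sorted libraries. *Nampt* levels were 0.09 to 0.75 at T0 and -5.66 to -2.05 in the sorted libraries, below T0 in 26 of 26.

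Of 48 listed genes of purine nucleoside and nucleotide handling, 41 were in the library, and 1 (2.44%) fell and none rose, again beside 16.3% of all genes (list median -0.12). *Ak6*, a nuclear adenylate kinase family member, fell by 3.15 (SE 0.580, adjusted p = 4.42e-05 by limma) and was below T0 in all 26 sorted libraries. No gene of either list was called between treatments over the 5 organs. The 95% intervals of *Nampt* and *Ak6* end at -2.86 and -1.97, below the lowest limit of any ectoenzyme gene, -1.81 for *Nt5e*, whereas that of *Nadk*, from -2.91 to -0.70, overlapped those of several ectoenzyme genes. *Nampt*, *Ak6* and *Nadk* were named because they passed the threshold in this same comparison. Their distance from genes that were not called follows from that choice and is no test of the lists.

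Across the 26 sorted libraries of the 5 organs, the 36 pairs among the 9 genes had Pearson correlations from -0.606 (*Entpd2* with *Entpd8*) to 0.542 (*Entpd1* with *Entpd8*), with a median of 0.0033 beside 0.0241 for all gene pairs. All gene pairs ran from -0.874 to 0.899. The libraries share depth and lost sgRNAs, which enter all such values. The most alike genes named next were picked as the highest of all library genes, so their values are high by that choice. The 3 genes most like *Nt5e* were *Itpka* (0.873), *Rdh1* (0.838) and *Nt5c2* (0.813). For *Cd38* they were *Hacd4* (0.597), *Gm13882* (0.588) and *Ampd2* (0.572), and for *Entpd1* *Hpgds* (0.626), *Pde7a* (0.624) and *Ndufb7* (0.609). Without peritoneal metastases anti-PD-1 replicate 2, the 36 pairs ran from -0.548 (*Entpd8* with *Enpp3*) to 0.560 (*Entpd3* with *Enpp1*) with a median of 0.0470. Of the 3 most alike genes, all 3 stayed so for *Nt5e*, 2 for *Entpd1* and 1 for *Cd38*.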

How the data were processed

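Genomic DNA at the integrated sgRNA was sequenced in 43 samples, of which 41 have values. The deposited values are a signal per sgRNA and library: the authors counted reads with MAGeCK, scaled them by the 250 nontargeting controls and applied ComBat, per their methods for effects between organs, although equal values above 0 were found only between libraries of the same replicate number. Since they hold fractions, count models could not be used, and with the read depth unknown no counting interval is given. The signals of a library summed to 1788300 to 4228882. Genome build and aligner are not given in the sources used here, and no coordinates or sgRNA sequences are printed.

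From the deposited signal, log2(signal + 1) was averaged over 5 sgRNAs per gene, with the pseudocount of 1 understating changes of low values, and centred on the mean of the nontargeting sgRNAs. limma 3.58.1 in R 4.3.3 fitted 1 mean per group to the 29 libraries of T0 and the 5 organs, and separately to the 15 of T0 and the lymph nodes, with Benjamini-Hochberg adjustment over 2078 genes. The fit was tested on simulated data. A lowest value was 0 or the lowest value of an sgRNA within a replicate number that at least 2 libraries shared. Figures were drawn with matplotlib.

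All 9 genes are named, with up to 4 called genes of each related list in the mean of the 10 groups or the treatment comparison, and the 3 genes of highest correlation with *Cd38*, *Nt5e* and *Entpd1*. A gene of the purine list is not reported here and was left out of that list and its counts. The genes, the lists and the tests were chosen with earlier results of these data known. Alternatives were another pseudocount, centring or summary over sgRNAs, a filter on low sgRNAs, other sets of libraries in the fit, library weights, the replicate number as a block, and each library left out in turn.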

Additional observations from a re-analysis of the deposited data

How the results depend on the processing

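The 9 genes gave 234 differences and F-tests, recomputed under 10 alternatives and with each of 41 libraries left out, and 5.64% of the 7497 recomputed differences changed sign. The test of whether the treatment difference varied by organ gave 0 calls throughout. For single groups, the share of all genes called under each alternative is not given here, so the counts of calls below have no background beside them. Of the 90 changes from T0 in the 5 organs, 0 were called in the main setting, 1 after centring on the nontargeting median or on the median of all sgRNAs (*Entpd8* in lung IgG, -2.68 and -2.25), 1 with the median of the sgRNAs (*Cd38* in lung IgG, 1.98), 11 on values as deposited, 6 with only the groups compared in the fit, 2 with library weights, and 0 to 2 with a library left out (*Cd38* and *Entpd8* without lung IgG replicate 1, *Nt5e* without lung anti-PD-1 replicate 1). With only the groups compared, 5 of the 6 calls were in liver anti-PD-1, a single library (*Cd38*, *Entpd2*, *Entpd3*, *Entpd8* and *Enpp1*), and the sixth was *Entpd2* in liver IgG. With weights, the 2 were *Cd38* and *Entpd8* in liver anti-PD-1.

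In the mean of the 10 groups, 1 gene was called on values as deposited (*Entpd8*, -1.60) and 1 with library weights (*Entpd8*, -0.49, adjusted p = 0.0225 by limma). Values as deposited also gave 1 call between organs (*Entpd8*) and 36 calls in the lymph nodes, where they keep the library-wide loss of signal. Treatment calls were 0 to 1 with a library left out (*Entpd3* in lung without lung IgG replicate 2), again without the share of all genes beside them. The median change of all genes was -0.14 in the main setting, -0.55 with the nontargeting median, -1.14 as deposited and 0.10 with the median of the sgRNAs. Genes called numbered 338 in the main setting, 673 as deposited, 707 with weights and 164 without the lowest 10% of sgRNAs. Of the 45 sgRNAs, 20 had a mean change above 0, against 19 with a pseudocount of 10 and 10 with the nontargeting median.

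Organ means, correlations and sgRNA changes without peritoneal metastases anti-PD-1 replicate 2 were added after seeing the data. With the replicate block, 0 of the 9 genes were called in any comparison. Deviations of same-numbered IgG and anti-PD-1 libraries of an organ had r from -0.106 to 0.0047 over 17 pairs, against -0.0697 to 0.0859 over 34 pairs of unequal number. Lowest values were shared within replicate numbers, so the batch correction may have removed what same-numbered libraries had in common. These correlations therefore cannot show whether the numbers pair libraries, and no pairing was used in the main setting. Unknown depth, 2 or fewer libraries in liver IgG, liver anti-PD-1 and peritoneal metastases IgG, and lost sgRNAs limit precision, most of all in the lymph nodes.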
